A study of Mus musculus with 11 samples.

Results

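The 10 genes described here are immediate early genes, chosen by name: the AP-1 genes Fos, Fosb, Jun and Junb, the Egr genes Egr1, Egr2 and Egr3, the nuclear receptor gene Nr4a1, and the immediate early response genes Ier2 and Ier3. Earlier results of these data were known when they were chosen. All 10 had a row among the 53453 gene rows of the table, and 8 were among the 13549 genes abundant enough to test. Transcripts were sequenced from primary neurospheres, in which neural precursor cells grow as free-floating balls, taken from mouse embryonic brain at E15.5. The control group held 6 libraries with no treatment, and the other group held 5 libraries with Klf5 overexpression; by the labels, 6 control and 5 overexpression embryos were used, and each library was treated as 1 embryo. Strain, age in culture, and the way in which Klf5 was overexpressed (vector, transgene or promoter) are not stated by the labels. Libraries are called control 1 to 6 and overexpression 1 to 5, after the numbers in their labels.

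Immediate early genes are transcribed soon after a stimulus such as a growth factor, calcium entry or stress, without new protein synthesis, and most of their transcripts are short-lived. Their promoters are read by factors that wait on the DNA: SRF with its ELK partners at CArG boxes, and CREB with its CRTC coactivators at cAMP response elements. Several products are themselves transcription factors: Fos and Jun proteins pair as AP-1, Egr proteins are zinc finger factors restrained by the NAB corepressors, and Nr4a1 is an orphan nuclear receptor. Since handling of a culture can also set the response off, a level can vary from culture to culture within a group, and it was asked here how much of each gene's variation lay between libraries of one group and how much between the groups.

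Promoter sequences were taken from RefSeq (GRCm38.p6), as windows of 300 bases from 250 bases before the transcription start. Windows of 7 of the 10 genes were used (all but Egr1, Egr3 and Ier2). Those shown belong to Fos and Junb, which rose and fell together from library to library, and to Nr4a1 and Ier3, which differed between the groups. Capitals mark the core of the cAMP response element, TGACG on either strand (CGTCA where it lies on the other strand). The windows are chr12:85473640-85473939 on the plus strand for Fos, chr8:84978699-84978998 on the minus strand for Junb, chr15:101266596-101266895 on the plus strand for Nr4a1 and chr17:35821463-35821762 on the plus strand for Ier3.
Fos: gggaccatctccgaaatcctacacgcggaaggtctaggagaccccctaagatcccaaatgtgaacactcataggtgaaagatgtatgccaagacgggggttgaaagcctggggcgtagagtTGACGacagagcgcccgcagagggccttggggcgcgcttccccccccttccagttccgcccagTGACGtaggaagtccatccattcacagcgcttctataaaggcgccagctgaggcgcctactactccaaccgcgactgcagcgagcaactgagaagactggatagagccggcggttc
Junb: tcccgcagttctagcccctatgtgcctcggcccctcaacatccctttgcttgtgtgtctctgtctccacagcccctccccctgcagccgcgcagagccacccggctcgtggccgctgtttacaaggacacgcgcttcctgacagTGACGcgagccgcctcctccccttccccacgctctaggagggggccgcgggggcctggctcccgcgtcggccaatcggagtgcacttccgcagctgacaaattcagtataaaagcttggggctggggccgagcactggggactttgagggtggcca
Nr4a1: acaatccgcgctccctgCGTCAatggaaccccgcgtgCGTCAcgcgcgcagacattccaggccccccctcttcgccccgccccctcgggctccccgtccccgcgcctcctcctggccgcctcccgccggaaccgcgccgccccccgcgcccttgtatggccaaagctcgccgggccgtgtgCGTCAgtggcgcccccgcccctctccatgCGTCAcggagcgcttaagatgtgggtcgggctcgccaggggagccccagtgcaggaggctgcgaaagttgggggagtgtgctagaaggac
Ier3: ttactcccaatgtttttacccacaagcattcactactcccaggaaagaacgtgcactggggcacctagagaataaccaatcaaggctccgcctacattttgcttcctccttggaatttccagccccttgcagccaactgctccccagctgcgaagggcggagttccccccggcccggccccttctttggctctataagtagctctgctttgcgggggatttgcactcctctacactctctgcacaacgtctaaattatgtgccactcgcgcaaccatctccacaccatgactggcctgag

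The Nr4a1 window held 4 such cores, beginning 233, 213, 69 and 40 bases before the start, and the Fos window held 2, beginning 129 and 66 bases before it. Junb had 1, beginning 106 bases before the start, and Ier3 had none. Over these 7 genes, 5 had the core in at least 1 window (Egr2, Fos, Fosb, Junb and Nr4a1), against 20.8% of all 32851 mouse windows of this length and 23.0% of genes. A CArG box was found in Egr2 only among the 7, against 1.63% of windows and 1.81% of genes. Egr1, Egr3 and Ier2 were not searched, nor were bases outside the windows. The Nr4a1 window lies inside the span of that gene given below, so starts farther upstream in it were not searched. Positions are counted from the RefSeq start of each window, which need not match the gene coordinates given below and does not for Junb. The EGR motif GCGNGGGCG, which can overlap a GC box, was found in Fosb and Nr4a1, against 5.55% of windows and 6.27% of genes. The GC box GGGCGG was in 6 of the 7, against 35.7% of windows and 38.2% of genes. The full element TGACGTCA, which contains the core, and the AP-1 motif TGANTCA were in none of the 7. They were in 1.79% and 7.81% of windows, and in 2.03% and 8.97% of genes. CACCC was in 4 of the 7 (57.5% of windows, 59.8% of genes) and TATAAA in 2 of the 7, Fos and Junb (13.6% and 15.7%). All motifs were searched on both strands, and a match of letters is a description of the window, not a bound site.

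Klf5 itself lay between 0.371 and 1.29 TPM in the controls and between 53.6 and 93.0 TPM in the overexpression libraries, so each library matched its label. The listed rows summed to 814208 to 846780 TPM per control library and 730832 to 821967 TPM per overexpression library. Rows resembling ribosomal RNA took 18.1 to 30.03% and 11.5 to 28.7% of these sums. Summed neural precursor markers (7 genes, all present) lay at 4603 to 7707 TPM in controls and 3591 to 5555 TPM with overexpression, and neuron markers (6 genes, all present) at 224 to 334 and 195 to 306 TPM. Fabp7 made up most of the first sum and Map2 most of the second. The precursor markers went different ways: the ratio of mean TPM, overexpression to control, was 1.46 for Vim, without overlap between groups, and 0.551 for Hes5, 0.585 for Fabp7 and 0.599 for Slc1a3, with overlap. Among the neuron markers it was 0.449 for Rbfox3, 0.512 for Syt1, 0.783 for Dcx, 0.849 for Map2, 0.858 for Snap25 and 0.972 for Tubb3, each with overlap. Of the 7 microglia markers, Aif1, Cx3cr1, Tyrobp and C1qa were at 0 in every library, as were Hba-a1, Hbb-bs and Alas2 of the 4 erythroid markers; the summed microglia markers stayed under 2.00 TPM, and the summed endothelial (5 genes) and mural (4 genes) markers stayed under 1.06 and 5.44 TPM. The list sums overlapped between groups. Relations of the precursor and neuron lists with the genes described here are given beside Egr3; beyond these, the part of other cell types in the results was not tested. In bulk RNA, fewer cells of a type and less RNA per cell cannot be told apart.

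Levels spanned a wide range, and TPM, which divides by transcript length, allows them to be set side by side. In the controls Jun was the most abundant of the 10 at 73.2 ± 12.7 TPM (SD, n = 6), above Ier2 in 6 of 6 libraries with no overlap. Ier2 (22.6 ± 6.28), Nr4a1 (22.3 ± 4.45) and Egr1 (20.5 ± 18.6 TPM) followed and could not be ranked, since their ranges overlapped. Ier3 (8.19 ± 2.72) and Fos (6.56 ± 2.11 TPM) overlapped too, and Junb (3.48 ± 1.33 TPM) lay below Fos in each of the 6 controls. Egr3 (0.862 ± 0.867), Egr2 (0.860 ± 0.804) and Fosb (0.0711 ± 0.112 TPM) were at the bottom. With overexpression Jun stayed first at 72.7 ± 9.85 TPM (SD, n = 5), while Nr4a1 (36.6 ± 2.46), Ier3 (32.4 ± 6.51) and Ier2 (30.2 ± 7.22 TPM) came next and could not be ranked, since their ranges overlapped. The mean of Ier3 was now above that of Egr1, with overlap.

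**Figure D1:**
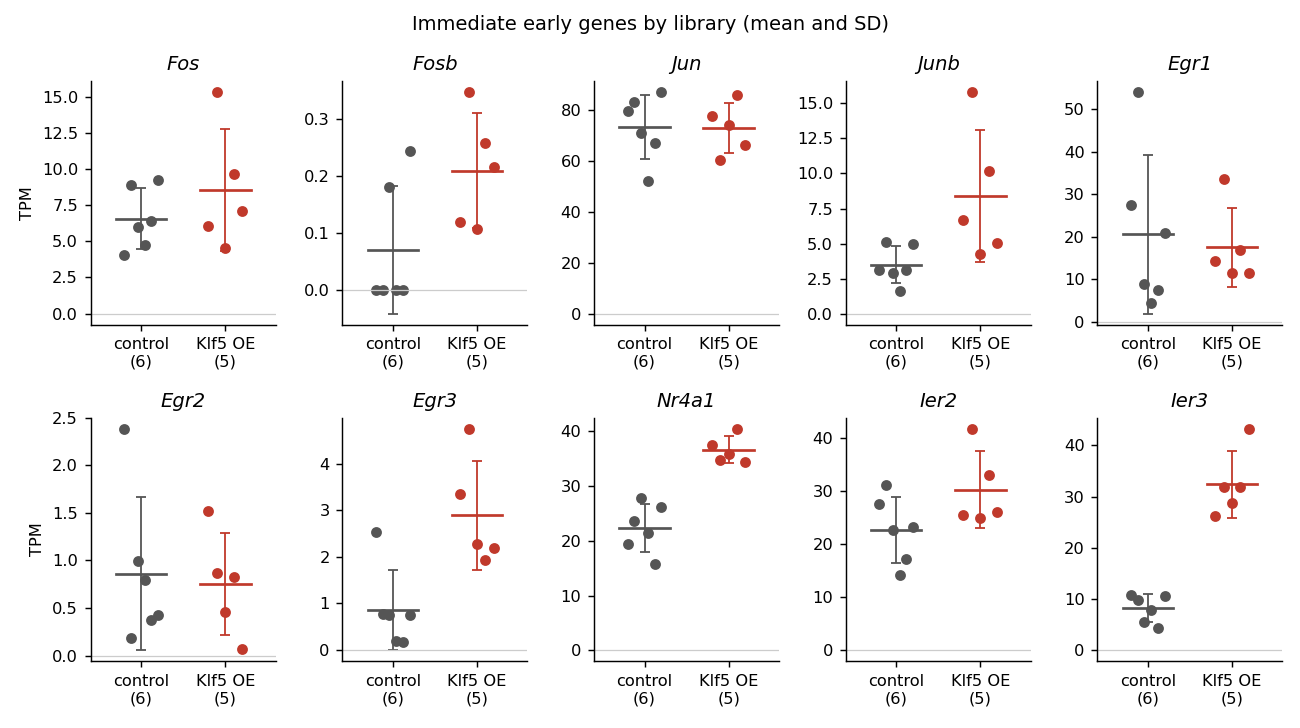
Deposited TPM of the 10 immediate early genes in each library, with the group mean (line) and SD (bar); each panel has its own linear axis, and points are 6 control and 5 overexpression libraries. Nr4a1 and Ier3 have no overlap between groups, Egr1 ranges from 4.41 to 54.0 TPM within the controls alone, and Fosb is near 0.

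With Klf5 overexpression, Ier3 rose about 4-fold and Nr4a1 by about 1.64 times in mean TPM, both without overlap between groups, and the low-abundance gene Egr3 rose at the edge of the threshold. Junb was 2.41 times higher in mean TPM but did not pass the test over all genes. Fos, Jun, Egr1 and Ier2 did not pass. Of the 8 tested genes, 3 were higher and none lower at an adjusted p under 0.05 (limma on log2(TPM + 1), two-sided, Benjamini-Hochberg over all tested genes). Over all 13549 genes 3.72% were called, 2.29% as higher and 1.43% as lower. One of the 3, Egr3, had passed the abundance filter mainly through the overexpression group, so the count of 3 is given as a description and not set against these shares; without it 2 of the 8 were called. The 5 not called included 2 with an unadjusted p under 0.05 (Junb and Ier2). The median log2 difference of the 8, Egr3 included, was 0.56, and 7 of the 8 values were above 0. As Egr3 is among them and some of the genes vary together, these are descriptions and are not set against all genes. All 5 overexpression libraries lay above all 6 controls for 2 of the 8 (Nr4a1 and Ier3), as for 1.99% of all tested genes. None of the 8 had all overexpression libraries below all controls, which held for 1.31% of genes.

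Among the AP-1 genes, Fos (ENSMUSG00000021250, GRCm38 chromosome 12, 85473890 to 85477273, plus strand), whose protein needs a Jun partner to bind DNA, ran from 4.08 to 9.23 TPM in controls with a median of 6.21. In overexpression libraries 1 to 5 it stood at 6.03, 15.3, 4.55, 9.66 and 7.09 TPM. Overexpression 2 was the highest of all 11 libraries and overexpression 3 was below the control median, so the groups overlapped. The log2 difference of 0.28 ± 0.27 (SE; 95% interval -0.29 to 0.85) did not pass (limma adjusted p = 0.812, exact permutation p = 0.383). Fosb, its paralog, was listed at 0 in 4 of 6 controls and reached at most 0.348 TPM anywhere, so it was not tested.

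Jun (ENSMUSG00000052684, chromosome 4, 95049034 to 95052222, minus strand), the partner that can also pair with itself, had 52.2, 75.2 and 86.9 TPM as the lowest, median and highest control. With overexpression it stood at 77.4, 60.3, 73.9, 85.7 and 66.2 TPM, inside the control range in every library. Its log2 difference was -0.00 (95% interval -0.30 to 0.30; limma adjusted p = 1.0), and the sign changed between settings. The interval covers ratios from 0.814 to 1.23. The antisense gene Junos overlaps Jun. No source says whether counting used strand, so the reads of this pair cannot be told apart.

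Junb, a Jun relative with weaker activating capacity, appeared as 2 rows carrying their own regions. The row used for it covers the protein-coding transcript (ENSMUSG00000052837, chromosome 8, 84976910 to 84978718, minus strand), and the other covers a processed transcript downstream (84974484 to 84976542). The gene's span overlaps Prdx2 on the other strand. The coding row had 1.65, 3.11 and 5.10 TPM as the lowest, median and highest control. With overexpression it had 6.65, 15.8, 4.29, 10.2 and 5.06 TPM, so 3 of 5 libraries lay above every control and all 5 above the control mean. The log2 difference was 0.99 ± 0.30 (SE; 95% interval 0.36 to 1.62), with an exact permutation p of 0.0195 and a limma adjusted p of 0.0926. With each library left out the adjusted p ran from 0.0469 (without overexpression 3, the only one of the 11 fits to call it) to 0.243, and with both rows summed, an alternative added after the data were seen, the log2 difference was 1.09 and the adjusted p 0.033.

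Among the Egr genes, Egr1 (ENSMUSG00000038418, chromosome 18, 34859823 to 34864984, plus strand) was the most abundant member of its family. It had the largest within-group SD of the 8 tested genes on the log2(TPM + 1) scale, which understates low genes. It had 27.5, 54.0, 8.96, 4.41, 7.5 and 20.8 TPM in controls 1 to 6, a 12.2-fold range (15.0-fold for the low-abundance gene Egr3). In overexpression libraries 1 to 5 it had 14.3, 33.6, 11.4, 16.9 and 11.4 TPM, all inside the control range. Its within-group SD of 1.02 on the log2(TPM + 1) scale exceeded that of 98.5% of tested genes, whose median was 0.294. The group difference was 0.11 ± 0.48 (SE; 95% interval -0.90 to 1.13; limma adjusted p = 0.977). The interval reaches ratios from 0.535 to 2.19. The sign also depended on single libraries: the difference was -0.19 without control 4 and 0.47 without control 2.

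Egr2 (ENSMUSG00000037868, chromosome 10, 67535475 to 67542188, plus strand), known for its part in hindbrain patterning and myelination, had 0.182, 0.609 and 2.38 TPM as the lowest, median and highest control and 0.0722 to 1.52 TPM with overexpression. It reached 1 TPM in only 2 libraries and was not tested. Egr3 (ENSMUSG00000033730, chromosome 14, 70077203 to 70082614, plus strand), a family member best known from lymphocytes and muscle spindles, had 2.53, 0.785, 0.748, 0.191, 0.169 and 0.744 TPM in controls 1 to 6. With overexpression it had 3.34, 4.75, 2.27, 1.92 and 2.19 TPM. Control 1 lay inside the overexpression range and the other 5 controls lay below it. The log2 difference was 1.12 ± 0.30 (SE; limma adjusted p = 0.0479, exact permutation p = 0.0108), and the ratio of means of 3.36 was 5.49 without control 1.

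The Egr3 call was kept in 1 of the 11 fits that left out a library (without control 1, adjusted p = 0.0087) and lost in the other 10, up to 0.143 without overexpression 2 (limma, Benjamini-Hochberg). Of 9 other settings applied alike to all genes, only array weights kept it (0.0334), and the rest gave 0.05 to 0.15. The gene passed the abundance filter through the overexpression group, with 5 libraries at or above 1 TPM against 1 control. On the same group-centred scale as the pairs below, its level fell as the mean of the 6 neuron markers rose (r = -0.71, rho = -0.75, exact permutation p = 0.0194, r = -0.53 without control 1 and overexpression 1). That was 1 of 16 relations of marker lists with the 8 genes, added after the data were seen, and none passed after Benjamini-Hochberg adjustment (smallest adjusted p = 0.31).

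Nr4a1 (ENSMUSG00000023034, chromosome 15, 101254269 to 101274795, plus strand), also called Nur77, had 15.7, 22.5 and 27.7 TPM as the lowest, median and highest control. With overexpression it had 37.5, 34.8, 35.8, 40.4 and 34.4 TPM, a narrow band above every control. The log2 difference was 0.71 ± 0.14 (SE; 95% interval 0.40 to 1.01; limma adjusted p = 0.00883, exact permutation p = 0.00433). It passed in each of the 11 fits that left out a library (0.00727 to 0.0324) and in 10 of 10 other settings. The relatives Nr4a2 and Nr4a3 did not pass: Nr4a3, the one with the smaller p, had 2.39 ± 1.11 TPM in controls and 1.21 ± 0.792 TPM with overexpression (log2 difference -0.62, limma adjusted p = 0.396). Nr4a1 made up 80.3 to 86.6% of the summed TPM of the 3 Nr4a genes in controls and 88.0 to 94.2% with overexpression.

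Of the immediate early response genes, Ier2 (ENSMUSG00000053560, chromosome 8, 84661331 to 84662852, minus strand), which encodes a short-lived nuclear protein, had 14.2, 22.9 and 31.1 TPM as the lowest, median and highest control and 25.4, 41.7, 25.0, 33.0 and 26.0 TPM with overexpression. All 5 overexpression libraries were above the control mean and 2 above every control. The log2 difference of 0.42 ± 0.20 (SE; 95% interval 0.00 to 0.83) did not pass (limma adjusted p = 0.396, exact permutation p = 0.0931).

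Ier3 (ENSMUSG00000003541, chromosome 17, 35821684 to 35822923, plus strand), a stress-induced gene whose product modulates cell survival and ERK signalling, showed the largest difference of the 8. Its lowest, median and highest controls were 4.38, 8.89 and 10.9 TPM. With overexpression it had 26.2, 31.9, 28.8, 32.0 and 43.2 TPM, so the groups lay far apart and did not overlap. The log2 difference was 1.90 ± 0.21 (SE; 95% interval 1.45 to 2.35; limma adjusted p = 4.88e-05), and the ratio of means was 3.95, or 3.62 to 4.23 with each library left out. The exact permutation p of 0.00216 is the smallest this test can give with 6 and 5 libraries. Ier2 and Ier3 share a name but not a family, and Ier3 rose from below Ier2 in each control to its level: on the log2 scale Ier3 minus Ier2 went from -1.38 ± 0.418 (SD, n = 6) to 0.11 ± 0.400 (SD, n = 5), with no overlap.

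**Figure D2:**
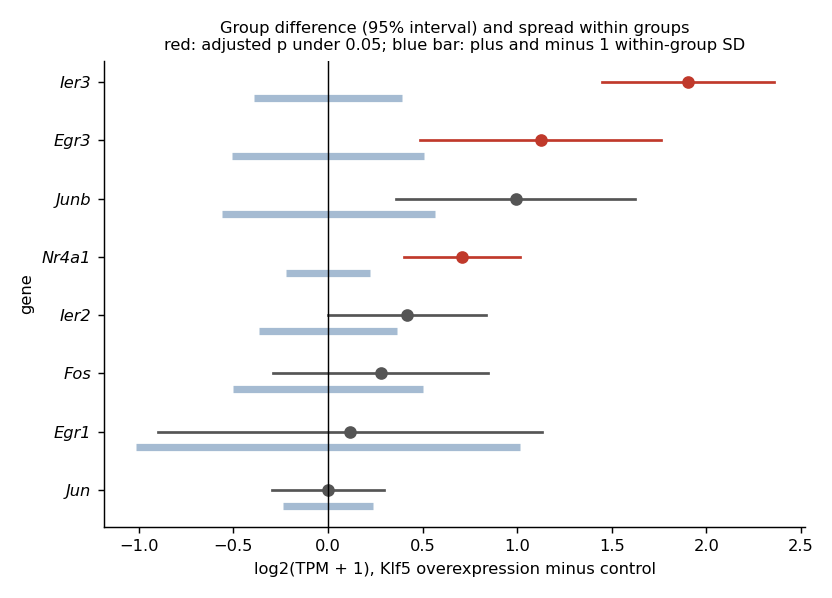
Difference on the log2(TPM + 1) scale, Klf5 overexpression minus control, for the 8 tested genes, with its 95% interval (line), and plus and minus 1 within-group SD (blue bar); red marks an adjusted p under 0.05. Ier3 and Nr4a1 differ by more than 3 within-group SDs, whereas the Egr1 difference of 0.11 is small beside its SD of 1.02.

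The share of each gene's variation that lay between the groups set the 8 genes apart from each other. It was 87.6% of the sum of squares of log2(TPM + 1) for Ier3, 75.3% for Nr4a1 and 59.7% for Egr3. Junb followed at 48.5% and Ier2 at 28.4%. For Fos it was 8.55% and for Egr1 0.384%, against a median of 6.80% over all tested genes. The Jun share was close to 0. Egr1, Junb, Egr3 and Fos had within-group SDs of 1.02, 0.563, 0.508 and 0.5003, each above those of at least 83.9% of tested genes, while those of Jun (0.236) and Nr4a1 (0.223) lay under the median of 0.294.

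The spread within groups was shared by some of the genes. After each group's mean was removed, all 28 pairs of the 8 genes had a correlation above 0 over the 11 libraries, with a median r of 0.39 and a range from 0.05 to 0.93. Of these, 4 passed after Benjamini-Hochberg adjustment over the 28 pairs (exact permutation of libraries within groups), and 6 had an unadjusted p under 0.05. The 28 pairs reuse the same 8 genes, and pairs of other genes were not taken for comparison. Egr1 and Ier2 went together most closely (r = 0.93, rho = 0.91, exact permutation p = 4.63e-05, adjusted p = 0.0013 for r and 0.00486 for rho). Without control 2 and control 4, the libraries farthest from the Egr1 median, r was 0.88, and within the 6 controls alone it was 0.94.

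The other 3 pairs all included Junb. Fos and Junb had r = 0.90 and rho = 0.87 (exact permutation p = 0.00104, adjusted p = 0.0104), and r = 0.79 without overexpression 2 and 3. Junb and Ier2 had r = 0.82 and rho = 0.79 (exact permutation p = 0.00163, adjusted p = 0.0114), and r = 0.59 without control 4 and overexpression 2. Junb and Egr1 had r = 0.76 and rho = 0.75 (exact permutation p = 0.00111, adjusted p = 0.0104), and r = 0.58 without the same libraries. Without overexpression 2, r was 0.83 for Fos, 0.75 for Ier2 and 0.73 for Egr1 with Junb, each with an adjusted p of 0.0539. Without control 4, Junb with Ier2 had r = 0.76 and Junb with Egr1 r = 0.68, both with an adjusted p of 0.053 (Benjamini-Hochberg, exact permutation). The correlations thus stayed well above 0 while the calls were narrowly lost. Egr1 with Ier2 passed in every fit that left out a library. Among the 6 controls alone none of the 28 pairs passed. With only 720 orders of 6 libraries, this test can barely reach the threshold after adjustment, so it does not show that the genes vary apart there. In the controls r ran from -0.29 (Fos with Egr3) to 0.94 (Egr1 with Ier2).

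**Figure D3:**
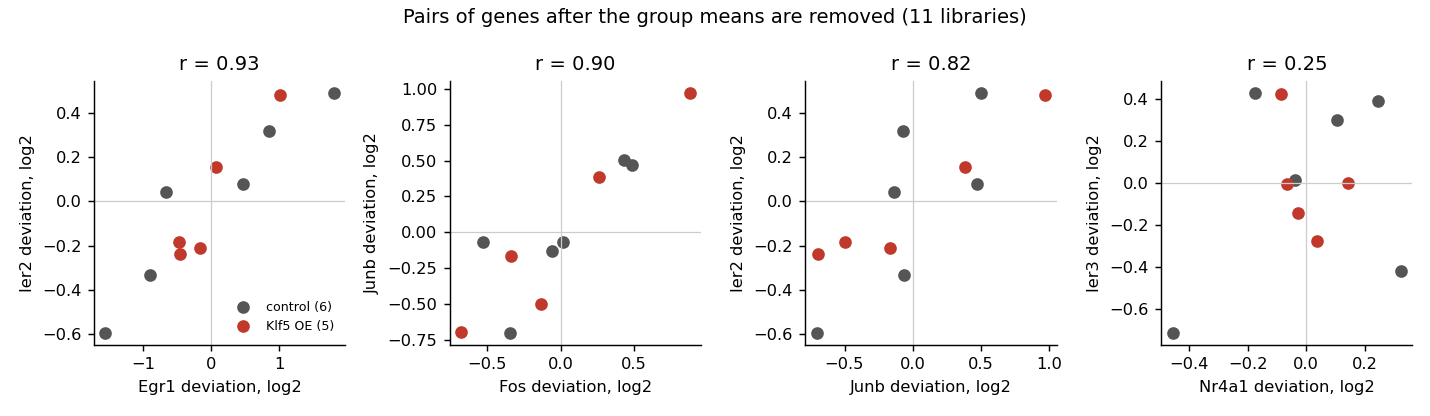
Deviation from the group mean on the log2(TPM + 1) scale for 4 pairs of genes, 1 point per library (6 control, 5 overexpression). Egr1 with Ier2 (r = 0.93), Fos with Junb (0.90) and Junb with Ier2 (0.82) lie along a line, whereas Nr4a1 with Ier3 (0.25) scatters.

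The libraries with high levels were the same for several genes and came from both groups. All 8 genes were above their group mean in control 2 and in control 6, and 7 of 8 in overexpression 4. In control 4, control 5, overexpression 3 and overexpression 5 only 1 of 8 was above it. Averaged over the 8 genes, the deviation was 0.48 in control 2, 0.45 in overexpression 2 and 0.30 in control 6, and -0.53 in control 4, -0.39 in control 5 and -0.30 in overexpression 3. Overexpression 2 was high in Egr1 (1.01), Junb (0.97), Fos (0.88), Egr3 (0.61) and Ier2 (0.48) but not in Jun (-0.26), Nr4a1 (-0.07) or Ier3 (-0.00). Control 1 was split, with Egr3 (1.03) and Egr1 (0.85) above the group mean and Fos (-0.53) below it. Which of the 2 library kits named in the labels made which library is not stated, so the part of the kit in this spread was not tested. The deviations come from TPM without further scaling. The factor of trimmed-mean scaling, a measure of a library's general level, was 1.12 in control 6 and 0.913 in control 5, as their deviations go. It was 1.08 in control 4 and 0.876 in overexpression 2, against theirs. The part of scale in these counts was not tested, and no share over all genes was taken.

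**Figure D4:**
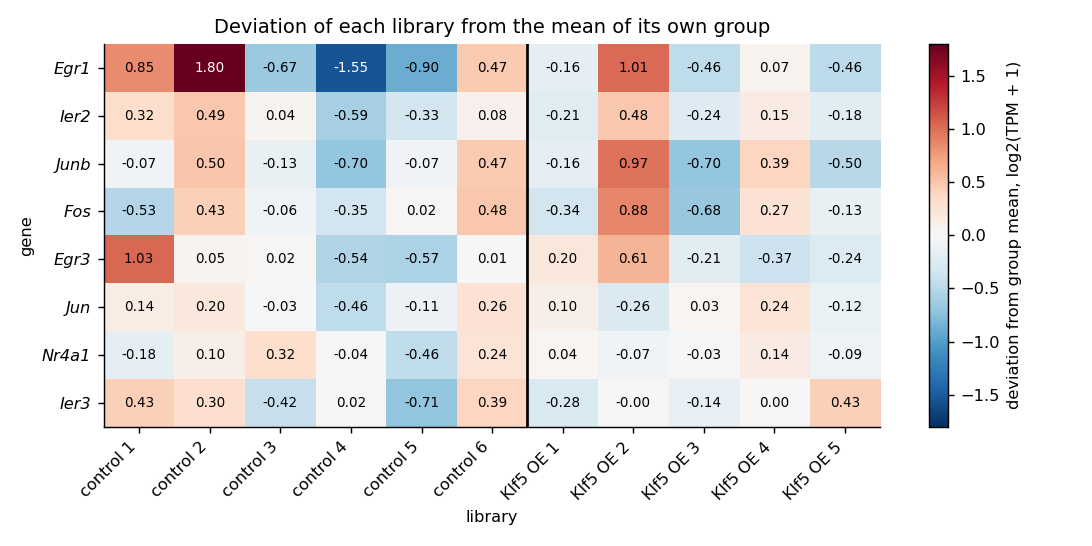
Deviation of each library (columns) from the mean of its own group, on the log2(TPM + 1) scale, for the 8 tested genes (rows); red is above and blue below the group mean. Control 2 is above its group mean in all 8 genes, overexpression 2 is high in Egr1, Junb and Fos but near 0 in Nr4a1 and Ier3, and control 4 is lowest in Egr1 (-1.55).

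For Nr4a1 and Ier3, the genes with the clearest group differences, no pair passed. Their largest correlations with another of the 8 genes were 0.39 (Nr4a1 with Jun) and 0.53 (Ier3 with Egr1), with adjusted p of 0.603 and 0.479 (Benjamini-Hochberg, exact permutation). With each other r was 0.25. Ier3 with Ier2 had r = 0.42, and both Nr4a1 and Ier3 were above their group mean in control 2 and control 6, as the other 6 genes were. A p that misses the threshold does not show that the genes vary independently, and their correlations were not tested against those of the other genes.

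To separate the shared spread from the group difference, each of the 8 genes was tested again with a covariate. This was the group-centred mean of the others among the 10, the untested Fosb and Egr2 included. It leaves the estimated difference in place and removes the part of the spread that follows this mean. Being centred by group, it cannot take up a difference in the shared spread that lies between the groups. The SE leaves out that uncertainty, so the p-values with this covariate can be too small and are given as a description. The SE of Egr1 fell from 0.48 to 0.28, that of Ier2 from 0.20 to 0.13 and that of Junb from 0.30 to 0.23. With this covariate 4 of the 8 passed: Ier3 (limma adjusted p = 4.25e-05), Nr4a1 (0.0103), Junb (0.0206) and Egr3 (0.0249). Ier2 had an adjusted p of 0.0958, and Egr1 (0.958), Fos (0.79) and Jun (1.0) remained far from the threshold. Another covariate was the mean of 8 immediate early genes not among the 10 (Atf3, Maff, Ier5, Arc, Btg2, Zfp36, Klf2 and Dusp1), not centred by group. With it Ier3 and Nr4a1 passed, and Egr3 (limma adjusted p = 0.058) and Junb (0.119) did not. Their estimated differences were then 1.09 and 0.99. Ier5 itself did not overlap between the groups, so this covariate can also take up part of a group difference.

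Ratios within a library were also taken, and are given as a description since the pairs were chosen after their values were seen. Egr3 minus Egr2 on the log2(TPM + 1) scale went from -0.01 ± 0.420 (SD, n = 6) to 1.16 ± 0.433 (SD, n = 5), without overlap. Junb minus Jun went from -4.09 ± 0.225 to -3.09 ± 0.753, with 4 of 5 overexpression libraries above every control. Egr3 minus Egr1 went from -3.19 ± 0.990 to -2.18 ± 0.386, with 3 of 5 overexpression libraries above every control. Nr4a1 minus Nr4a3 went from 2.83 ± 0.449 to 4.16 ± 0.532, without overlap, and Nr4a1 minus Nr4a2 from 2.76 ± 0.408 to 3.61 ± 0.243, with 3 of 5 above every control. Fos minus Jun was -3.32 ± 0.340 in controls and -3.04 ± 0.704 with overexpression, with overlap.

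Other immediate early genes, a list of 45 that holds none of the 10, moved in both directions. Of the 39 tested, 7 were higher and 2 lower by the same limma test, and 30 did not pass, where 2.29% of all tested genes were higher and 1.43% lower; the median log2 difference was 0.13. In 8 of the 39 the groups did not overlap, 7 above and 1 below the controls, against 1.99% and 1.31% of all tested genes. The list was chosen with earlier results of these data known. These counts therefore describe it and do not test whether such genes change more often than others. Among the higher genes, Gadd45b, a growth arrest and DNA damage response gene, had 2.17 to 5.89 TPM in controls and 35.8, 13.5, 19.9, 19.1 and 14.2 TPM with overexpression (log2 difference 2.10 ± 0.25, SE). Klf10, a Kruppel-like factor induced by TGF-beta, had 25.3 to 57.5 TPM in controls and 78.5 to 133 TPM with overexpression (1.55 ± 0.18). The limma adjusted p was 7.47e-05 for Gadd45b and 7.41e-05 for Klf10.

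The antiproliferative gene Btg1 averaged 21.1 ± 3.66 TPM (SD) over the controls and rose to 37.7 ± 5.19 TPM with overexpression (limma adjusted p = 0.00305). Zfp36l2, which encodes an RNA-binding protein that promotes decay of AU-rich transcripts, rose from 64.6 ± 10.3 to 114 ± 21.6 TPM (limma adjusted p = 0.00367), while its paralog Zfp36l1 fell from 90.2 ± 12.9 to 54.8 ± 11.4 TPM (0.009). Ccn1, a secreted matrix-associated protein formerly called Cyr61, fell from 4.45 ± 0.912 to 1.62 ± 0.388 TPM (limma adjusted p = 0.00514), with all 5 overexpression libraries below all controls. The 6 genes Gadd45b, Klf10, Btg1, Zfp36l2, Zfp36l1 and Ccn1 passed in each of the 11 fits that left out a library.

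The other 3 called genes were less firm. Cebpd, a basic leucine zipper factor, had 2.07 ± 1.00 TPM in controls and 8.27 ± 5.31 TPM with overexpression (limma adjusted p = 0.0204), and lost the call without overexpression 1, 2 or 4 (0.0532, 0.0587 and 0.0564). Fosl2, the Fos relative Fra-2, had 2.02 ± 0.781 and 4.67 ± 1.42 TPM without overlap between groups (limma adjusted p = 0.0423). Dusp5, a nuclear ERK phosphatase, had 1.75 ± 0.459 and 4.00 ± 1.41 TPM, also without overlap (limma adjusted p = 0.0466). Of the 11 fits that left out a library, Fosl2 and Dusp5 kept their calls in 2 (without control 1 or overexpression 5: 0.0253 and 0.037 for Fosl2, 0.0447 and 0.0364 for Dusp5), and the rest reached up to 0.12 and 0.141. Of 9 other settings, 6 kept Fosl2 and 4 kept Dusp5. Fos itself made up 48.9 to 90.3% of the summed TPM of Fos, Fosb, Fosl1 and Fosl2 in controls and 42.6 to 74.8% with overexpression, and Fosl2 9.75 to 38.3% and 19.6 to 47.3%. Ier5, named after its values were seen, had no overlap (7.53 to 12.9 TPM against 13.7 to 27.4 TPM) but did not pass (limma adjusted p = 0.136).

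**Figure D5:**
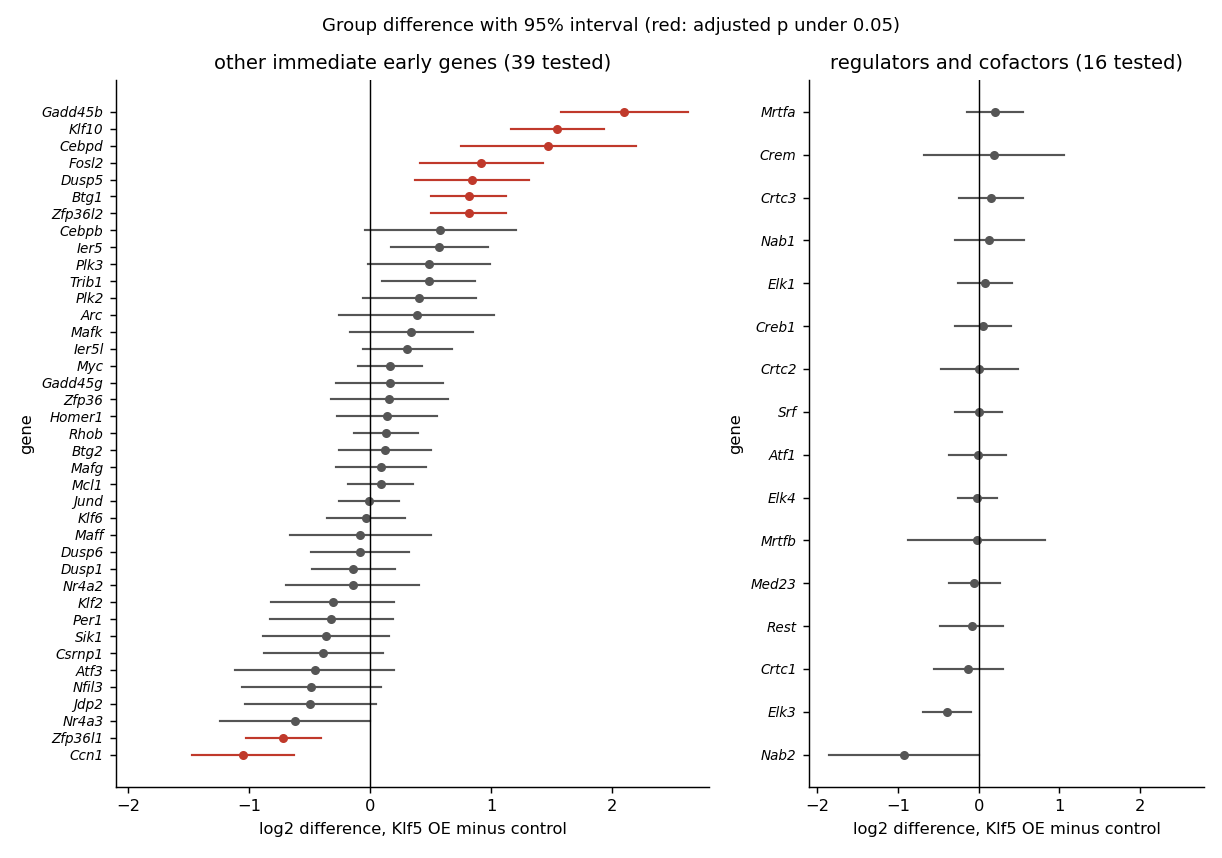
Difference on the log2(TPM + 1) scale with its 95% interval for 39 other immediate early genes (left) and 16 regulators and cofactors (right), ordered by value; red marks an adjusted p under 0.05. In the left panel 7 genes are red above 0, led by Gadd45b at 2.10, and 2 below it, and none is red in the right panel.

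Of 16 factors that drive or restrain the response, including Srf, Elk, Crtc, Creb and Nab genes, none passed the limma test, and 1 had an unadjusted p under 0.05. With 3.72% of all tested genes called, 0 of 16 is near the background and says nothing particular of these factors. That gene was Elk3, an SRF partner that can act as a repressor, at 35.4 ± 5.67 TPM in controls and 26.6 ± 3.76 TPM with overexpression (log2 difference -0.39 ± 0.14, SE; limma adjusted p = 0.179). The median log2 difference of the 16 was -0.01. Srf, Creb1 and Nab2 are named after their values were seen: Srf had a difference of -0.00 (95% interval -0.29 to 0.29) and Creb1 of 0.05 (-0.29 to 0.40). Nab2, an Egr corepressor that Egr proteins induce, spread widely, from 18.4 to 95.8 TPM in controls and 14.5 to 70.8 TPM with overexpression (-0.92, 95% interval -1.85 to 0.01).

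For 4 of the genes, the 10227 other genes with a mean of at least 5 TPM were ranked by the correlation of their group-centred levels over the 11 libraries, given here as a description. Egr1 was most like Cd93 (r = 0.91), Piezo1 (0.90) and Snhg15 (0.89). Fos was most like Fbxw9 (0.91), Car2 (0.90) and Dgkq (0.87). The genes most like Nr4a1 were Erich1 (0.92), Pias4 (0.91) and Tysnd1 (0.91), and those most like Ier3 were Mef2a (0.90), Cdkal1 (0.83) and Tm2d1 (0.80). None of these 12 genes passed the group test. With 11 libraries and so many genes ranked, values this high describe these libraries only.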

How the data were processed

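RNA was sequenced from 11 neurosphere libraries. Libraries were made with 2 kits from RNeasy-purified RNA, per the labels' protocols. The deposited values are TPM, in 1 table with a column per library that the authors made; per the submitters' processing notes, GRCm38.p5, HISAT2, StringTie, HTSeq and DESeq2 were used, with no versions or roles. Sequencing depth cannot be read from TPM and is unknown, so precision comes only from the spread between libraries. Row identifiers were matched to symbols for 53262 rows; coordinates, counted from 1, come from GENCODE annotation of GRCm38. Junb was split over 2 rows.

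The filter required 1 TPM or more in 5 or more libraries. Values were taken as log2(TPM + 1), whose fold changes understate low genes, and tested with limma 3.58.1 (R 4.3.3; variance trend, two-sided, Benjamini-Hochberg at 0.05, no covariate), which was tested on simulated data. Exact permutation tests used Python 3.11.15 and scipy 1.17.1: single genes over all 462 splits, pairs over all 86400 within-group orders, adjusted over the 28 pairs of tested members (45 pairs were planned over all 10). The 10 members and the other lists were chosen with earlier results of these data known. Named are the 10 members, called genes of the other lists (or the smallest p where none is called), the 3 genes most like each of Fos, Egr1, Nr4a1 and Ier3, and Klf5. Replicate numbers were not used to pair the libraries in the main test, and whether they pair them is not known. Alternatives are 0.1 as pseudocount, a filter of 5 TPM or none, 2 scalings, removal of abundant RNA rows, array weights, a replicate block, 2 covariates and leaving out each library.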

Additional observations from a re-analysis of the deposited data

Results flagged for a closer look

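Zfp36l2 in control 5 stood at 44.4 TPM, below the other 5 controls (65.3 to 73.0 TPM). On the log2(TPM + 1) scale its gap to the nearest of them was 0.775 of the group's whole range. It was the only value far from its group on that scale among 40 groups of values (20 genes in both groups). About 1 in 20 groups is picked out by chance. The group difference of Zfp36l2 passed with and without this library.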

How the results depend on the processing

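Ier3 and Nr4a1 passed under all alternatives run, and the counts of the 8 tested members called were 2 to 4 over all settings, 2 to 3 with each library left out. Calls over all genes were 504 in the main analysis, 349 without a filter, 735 with trimmed-mean scaling and 386 to 496 with each library left out. Other immediate early genes called were 5 rather than 9 with the filter of 5 TPM, which tests fewer genes, and 6 to 9 with each library left out; regulators stayed at 0 throughout. Correlated pairs were 4, and 2 to 6 with each library left out (2 without control 4; the cause was not tested). Members with an exact permutation p under 0.05 were 4, and 4 to 5 with each library left out. The Jun difference changed sign to 0.038 with trimmed-mean scaling, 0.039 without abundant RNA rows, 0.052 with quantile normalization, 0.072 with array weights, and 0.052 in the 10 numbered libraries with and without the replicate block; leaving out 1 library at a time moved it between -0.093 and 0.063, and the Egr1 difference between -0.19 and 0.47. The cause was not tested.

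Over all tested genes, libraries with the same number correlated with r from -0.04 to 0.30, with 1 of 5 above 0.1. Those with different numbers had r from -0.21 to 0.14, with 2 of 20 above 0.1. Whether the numbers pair the libraries is not settled by this. With the replicate block the SE of Egr1 was 0.32, against 0.51 in the same 10 libraries without it, while those of Jun and Ier3 were larger with the block. The replicate block gave 420 calls, against 408 without it in the same 10 libraries, and Egr3 an adjusted p of 0.05 against 0.0852 (limma). With unknown depth, the limits for low genes such as Fosb and Egr2 cannot be given as counts.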
